A study of Mus musculus with 9 samples.

Results

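The prostaglandin genes described here were 10 genes chosen by symbol: the cyclooxygenases Ptgs1 and Ptgs2, the PGE2 synthases Ptges and Ptges2, the prostacyclin synthase Ptgis, the degrading enzyme Hpgd, and the PGE2 receptors Ptger1, Ptger2, Ptger3 and Ptger4. All 10 were found among the 21498 gene symbols of the expression files, and all 10 passed the filter on low values (at least 0.1 FPKM in at least 3 samples), with single values between 0.23 and 166 FPKM. The samples were colon RNA of 9 male ICR mice, an outbred strain, that entered the study at the age of 5 weeks, with 3 mice in each of 3 groups and the end of week 18 as the common end point. Control mice received neither AOM/DSS nor antibody. AOM/DSS + IgG Ab mice received 10 mg/kg of the colon carcinogen azoxymethane (AOM) once, then 3 cycles of dextran sulfate sodium (DSS), which injures the colon epithelium, at 2% for 7 days in the first and 1.5% for 5 days in each of the others, and a control IgG antibody at 1.5 mg/kg during the DSS cycles. AOM/DSS + anti-S100a9 Ab mice received the same AOM and DSS and, at the same antibody dose, an antibody against S100a9, an inflammatory protein that neutrophils hold in large amounts. These 2 groups are called IgG Ab and anti-S100a9 Ab from here on. Both antibody groups thus carried AOM/DSS, and no group had AOM/DSS without antibody or antibody without AOM/DSS. The labels call the tissue of both AOM/DSS groups colorectal adenocarcinoma and that of Control mice normal colorectal mucosa, whereas the study's text speaks of colon mucosa for the anti-S100a9 Ab mice.

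Prostaglandins are short-lived lipid signals made from arachidonic acid, which phospholipases A2 release from membranes. A cyclooxygenase, either the widely expressed Ptgs1 or the inducible Ptgs2, converts it into an intermediate that terminal synthases turn into PGE2, prostacyclin and other products, and the dehydrogenase encoded by Hpgd inactivates PGE2 inside cells. In the colon PGE2 acts through 4 receptors on epithelium, stroma, muscle and immune cells, cyclooxygenase inhibitors are known to reduce tumor formation, and Hpgd is known as a gene of mature surface epithelium that is often low in colon tumors.

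Hpgd and Ptges were the prostaglandin genes that passed the test, and they did so in opposite directions. Hpgd was 3.61-fold lower in IgG Ab than in Control colon and 3.30-fold higher with anti-S100a9 Ab than with IgG Ab. Ptges was 1.69-fold higher in IgG Ab than in Control colon. Groups were compared on log2(FPKM + 0.1), where FPKM are fragments scaled by transcript length and by the sample's total, with limma fitted to all 9 samples and 15278 genes, and a gene was called changed at a Benjamini-Hochberg adjusted p under 0.05 over all genes tested. Of the 10 prostaglandin genes, 1 was called higher and 1 lower in IgG Ab against Control, where 8.18% of all genes were called higher and 3.01% lower. In anti-S100a9 Ab against IgG Ab 1 of 10 was called higher and 0 lower, against 6.72% and 14.4% of all genes. In anti-S100a9 Ab against Control limma called 0 of 10 in either direction, where 0.00655% of all genes were called higher and 0.00655% lower. These shares of called members lie near those of all genes, so the counts are no result about the prostaglandin genes as a group, and the genes are described one by one. Over the 10 genes the log2 fold changes had medians of 0.11, 0.10 and 0.14 in the 3 comparisons in this order, against 0.09, -0.06 and 0.04 for all genes tested. The 2 comparisons with IgG Ab share those 3 samples, so a lower value in one and a higher value in the other are not separate observations.

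**Figure D1:**
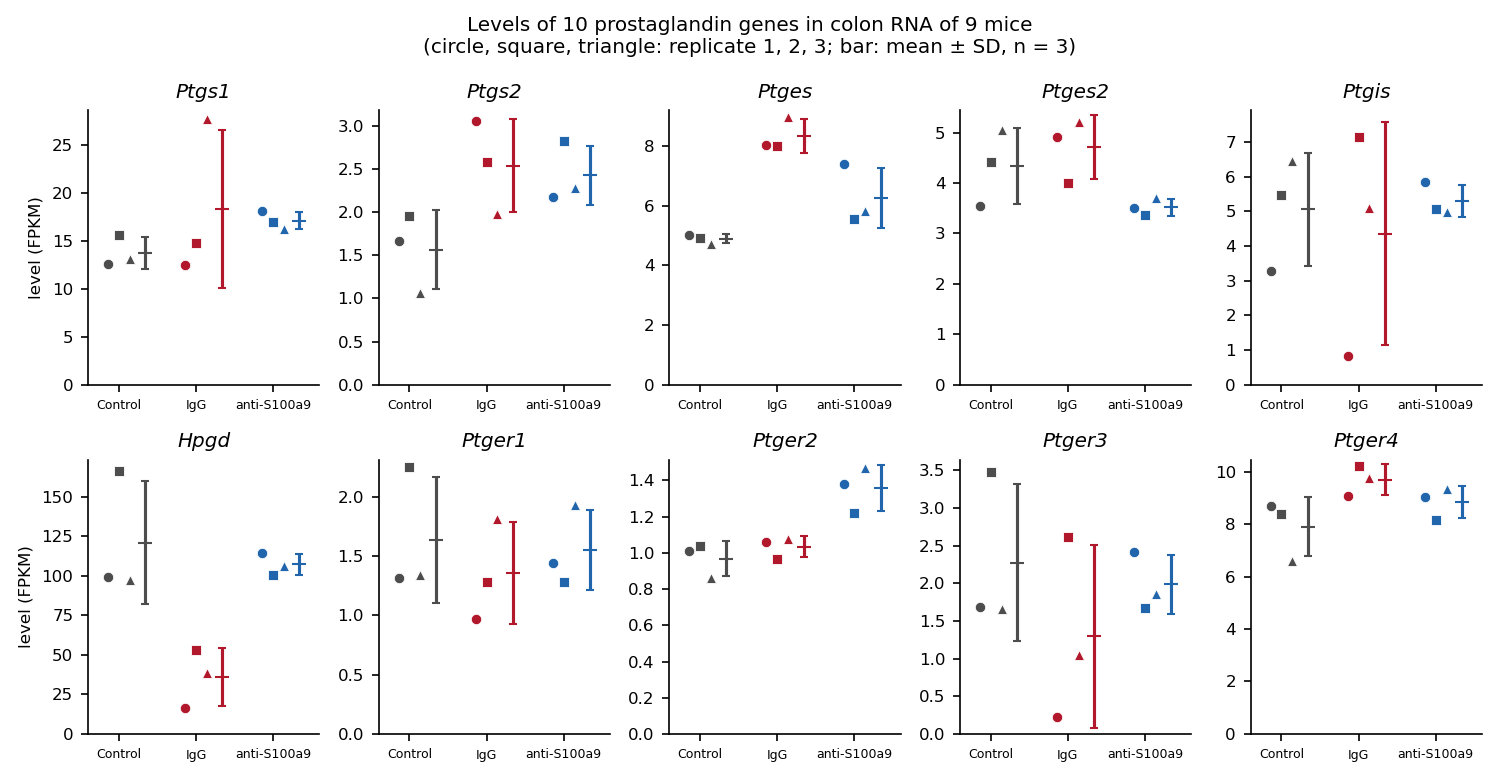
Level of each prostaglandin gene in FPKM (vertical axes from 0, with a scale of their own) in the 3 mice of each group, with the mean and SD (n = 3) beside them. Hpgd was at 16.5 to 52.8 FPKM in the IgG Ab samples and at 97.4 FPKM or more in all others, and Ptges was highest in the IgG Ab samples.

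The sequences around the start sites of 4 of these genes are given because 2 of the genes, Hpgd and Ptges, passed the test and the 2 cyclooxygenases are the pair whose regulation is known to differ. They come from RefSeq on GRCm38.p6, cover 250 bases before and 50 bases from the annotated start site (300 bases, read 5' to 3' on the gene's strand), and were found for 8 of the 10 genes, Ptgis and Ptger1 not being in the table used. Capitals mark matches to any of 9 short motifs searched on both strands. Hpgd lies at chr8:56294302-56294601 on the plus strand, Ptges at chr2:30903248-30903547 on the minus strand, Ptgs2 at chr1:150099781-150100080 and Ptgs1 at chr2:36230176-36230475, both on the plus strand.
Hpgd: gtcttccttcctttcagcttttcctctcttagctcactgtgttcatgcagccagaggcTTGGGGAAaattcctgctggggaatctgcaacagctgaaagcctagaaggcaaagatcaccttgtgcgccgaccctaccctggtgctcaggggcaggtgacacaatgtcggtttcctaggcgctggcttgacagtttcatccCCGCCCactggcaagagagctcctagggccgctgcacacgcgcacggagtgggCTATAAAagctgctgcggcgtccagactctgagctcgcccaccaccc
Ptges: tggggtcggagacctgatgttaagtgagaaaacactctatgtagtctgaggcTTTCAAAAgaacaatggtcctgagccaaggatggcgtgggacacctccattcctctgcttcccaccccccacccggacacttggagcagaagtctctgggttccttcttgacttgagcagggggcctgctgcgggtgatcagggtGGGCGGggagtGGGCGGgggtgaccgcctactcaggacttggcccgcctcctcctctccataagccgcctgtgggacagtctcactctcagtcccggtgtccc
Ptgs2: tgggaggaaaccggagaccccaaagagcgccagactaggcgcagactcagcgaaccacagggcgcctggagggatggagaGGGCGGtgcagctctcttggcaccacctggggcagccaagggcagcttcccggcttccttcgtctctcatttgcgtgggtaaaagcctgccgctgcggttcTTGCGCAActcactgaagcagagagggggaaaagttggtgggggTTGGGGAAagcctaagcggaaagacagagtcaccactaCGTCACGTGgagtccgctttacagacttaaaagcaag
Ptgs1: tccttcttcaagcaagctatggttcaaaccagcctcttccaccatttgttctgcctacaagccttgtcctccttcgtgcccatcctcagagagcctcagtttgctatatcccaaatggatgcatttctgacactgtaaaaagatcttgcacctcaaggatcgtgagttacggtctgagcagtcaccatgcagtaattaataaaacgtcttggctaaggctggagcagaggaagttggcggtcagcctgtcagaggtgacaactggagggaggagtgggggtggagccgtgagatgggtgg

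With the first base of the transcript as 1, the Hpgd window held the TATA box TATAAA at position 5, inside a match to the CDX motif TTTATNG on the other strand at position 4, a GC box (GGGCGG) on the other strand at position -50, and the C/EBP-like motif TTNCNNAA on the other strand at position -192. The outermost Hpgd start in GENCODE M21 lies 33 bases downstream of the RefSeq start, so the position of the TATA box relative to the start depends on the annotation. For Ptges, on the minus strand, the RefSeq start lies at base 30903297 of the chromosome and the outermost GENCODE start at base 30929863, so the printed window lies inside the GENCODE gene, far downstream of its outermost start. The Ptges window held GC boxes at positions -53 and -42 and a TTNCNNAA match at -198. The Ptgs2 window held a GC box at -170, TTNCNNAA matches at -69 and, on the other strand, at -25, and the half-site TGACG on the other strand at position 14, which overlaps the E-box CACGTG at position 17. The Ptgs1 window held none of the 9 motifs, which also included the AP-1 motif TGANTCA, the NF-kappaB-like motif GGNNTTTCC and the TCF motif CTTTGA.
Among all 32851 promoter windows of that length, 13.62% held TATAAA, 10.91% TTTATNG, 35.66% GGGCGG, 40.68% TTNCNNAA, 20.81% TGACG, 7.15% CACGTG, 7.81% TGANTCA, 5.82% GGNNTTTCC and 16.0% CTTTGA. These matches describe the letters of the windows only. The G and C share was 58.0% for Hpgd, 60.0% for Ptges, 59.3% for Ptgs2 and 50.7% for Ptgs1, beside a median of 52.7% over all windows, and the windows held 12, 10, 16 and 6 CG dinucleotides in this order, beside a median of 7.

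FPKM are scaled by transcript length, which is what allows levels to be set side by side between genes. The unit was inferred, however, and Gapdh, which nearly all cells express highly, was listed at no more than 0.755 FPKM, below every group mean of the 10 genes, so the listed level of a gene need not follow its abundance, and the order below is one of listed levels. Hpgd had the highest mean level of the 10 genes in every group, and its mean lay at the percentile 97.4 of the genes above 0 in Control, 89.9 in IgG Ab and 97.6 in anti-S100a9 Ab colon. Ptgs1 came next and then Ptger4 in every group, and Ptger2 had the lowest mean in every group. In Control colon the mean levels were 121 ± 39.0 FPKM for Hpgd, 13.7 ± 1.64 for Ptgs1, 7.90 ± 1.13 for Ptger4, 5.06 ± 1.63 for Ptgis, 4.89 ± 0.155 for Ptges, 4.34 ± 0.755 for Ptges2, 2.27 ± 1.04 for Ptger3, 1.64 ± 0.531 for Ptger1, 1.56 ± 0.459 for Ptgs2 and 0.969 ± 0.0959 for Ptger2 (SD, n = 3 each). From Ptgis to Ptges2, and from Ptger3 to Ptgs2, neighbors in this order differed by less than the larger of their SDs. The places of the 6 other genes moved between groups. From Control to IgG Ab to anti-S100a9 Ab, Ptges was at place 5, 4 and 4, Ptgs2 at 9, 7 and 7, Ptgis at 4, 6 and 5, Ptges2 at 6, 5 and 6, Ptger3 at 7, 9 and 8, and Ptger1 at 8, 8 and 9.

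Ptgs1 (chr2:36230426-36252272, plus strand, GENCODE M21 on GRCm38), the cyclooxygenase that most tissues express at a steady level, was measured at 12.5, 15.6 and 13.1 FPKM in Control, at 12.5, 14.8 and 27.8 FPKM in IgG Ab and at 18.1, 16.9 and 16.3 FPKM in anti-S100a9 Ab colon. The high mean of the IgG Ab group, 18.3 ± 8.22 FPKM, rested on replicate 3. Replicate 2 of that group lay within the Control range, and replicate 1, at 12.524 FPKM, lay just below the lowest Control value of 12.546 FPKM. The anti-S100a9 Ab samples were all above the Control samples. The log2 fold changes were 0.33 (SE 0.26) for IgG Ab against Control and 0.32 (SE 0.26) for anti-S100a9 Ab against Control, with limma adjusted p of 0.43 and 0.55. Between the AOM/DSS groups the difference was -0.01 with a 95% confidence interval of -0.61 to 0.59. Without IgG Ab replicate 3 the IgG Ab value against Control became -0.01, and that between the AOM/DSS groups became 0.33.

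Ptgs2 (chr1:150100031-150108227, plus strand), the cyclooxygenase induced by cytokines and growth factors, was at 1.67, 1.96 and 1.06 FPKM in Control, at 3.06, 2.59 and 1.98 FPKM in IgG Ab and at 2.18, 2.82 and 2.28 FPKM in anti-S100a9 Ab colon. All 6 AOM/DSS samples were above all 3 Control samples, the closest pair being 1.98 and 1.96 FPKM. The log2 fold change against Control was 0.69 (SE 0.28) with IgG Ab and 0.64 (SE 0.28) with anti-S100a9 Ab. Neither passed the test over all genes, with limma adjusted p of 0.14 and 0.31. Between the AOM/DSS groups Ptgs2 differed by -0.05, with a 95% confidence interval of -0.68 to 0.57, which leaves room for a change of about the size seen against Control in the lower direction.

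Ptgs1 made up most of the listed level of the cyclooxygenases in every sample, which need not be its share of the messenger RNA. It was at 88.2% to 92.5% of the summed Ptgs1 and Ptgs2 level in Control, 80.4% to 93.3% in IgG Ab and 85.7% to 89.3% in anti-S100a9 Ab colon. These ranges overlapped. The share was lowest in IgG Ab replicate 1 and highest in IgG Ab replicate 3.

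Ptges (chr2:30889471-30929863, minus strand) encodes the inducible microsomal PGE2 synthase, which is known to work together with Ptgs2. It was at 5.02, 4.92 and 4.72 FPKM in Control, at 8.01, 7.99 and 8.98 FPKM in IgG Ab and at 7.39, 5.56 and 5.82 FPKM in anti-S100a9 Ab colon. The 3 groups did not overlap, with the anti-S100a9 Ab samples between the others. Ptges rose by 0.75 on the log2 scale (SE 0.16) in IgG Ab against Control, with a limma adjusted p of 0.020. The call was lost with an adjusted p of 0.057 without Control replicate 1, 0.072 without Control replicate 2, 0.056 without IgG Ab replicate 3 and 0.062 when the anti-S100a9 Ab samples were left out of the fit, whereas the log2 fold change stayed between 0.70 and 0.78 on leaving out single samples. Anti-S100a9 Ab against IgG Ab gave -0.42 (SE 0.16, limma adjusted p = 0.087), and against Control 0.34 (SE 0.16, limma adjusted p = 0.32), neither past the threshold.

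Ptges2 (chr2:32395896-32405772, plus strand), a second, constitutively expressed PGE2 synthase, was at 3.54, 4.42 and 5.05 FPKM in Control, at 4.91, 4.01 and 5.22 FPKM in IgG Ab and at 3.50, 3.36 and 3.70 FPKM in anti-S100a9 Ab colon. The anti-S100a9 Ab samples were below all IgG Ab samples and overlapped the Control samples. Its log2 fold change between the AOM/DSS groups was -0.40 (SE 0.19, limma adjusted p = 0.15), and 0.12 (SE 0.19) in IgG Ab against Control, a value that turned to -0.03 after quantile normalization.

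Ptgis (chr2:167191805-167240604, minus strand) encodes the synthase of prostacyclin, a product known from vessel walls and smooth muscle. It was at 3.27, 5.46 and 6.44 FPKM in Control, at 0.826, 7.15 and 5.10 FPKM in IgG Ab and at 5.84, 5.08 and 4.98 FPKM in anti-S100a9 Ab colon. IgG Ab replicate 1 had the lowest value and IgG Ab replicate 2 the highest of all 9 samples, and the groups overlapped. The log2 fold change of -0.60 (SE 0.66) in IgG Ab against Control became 0.31 without IgG Ab replicate 1, and the value of 0.72 (SE 0.66) between the AOM/DSS groups became -0.19, so the direction rested on that sample.

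**Figure D2:**
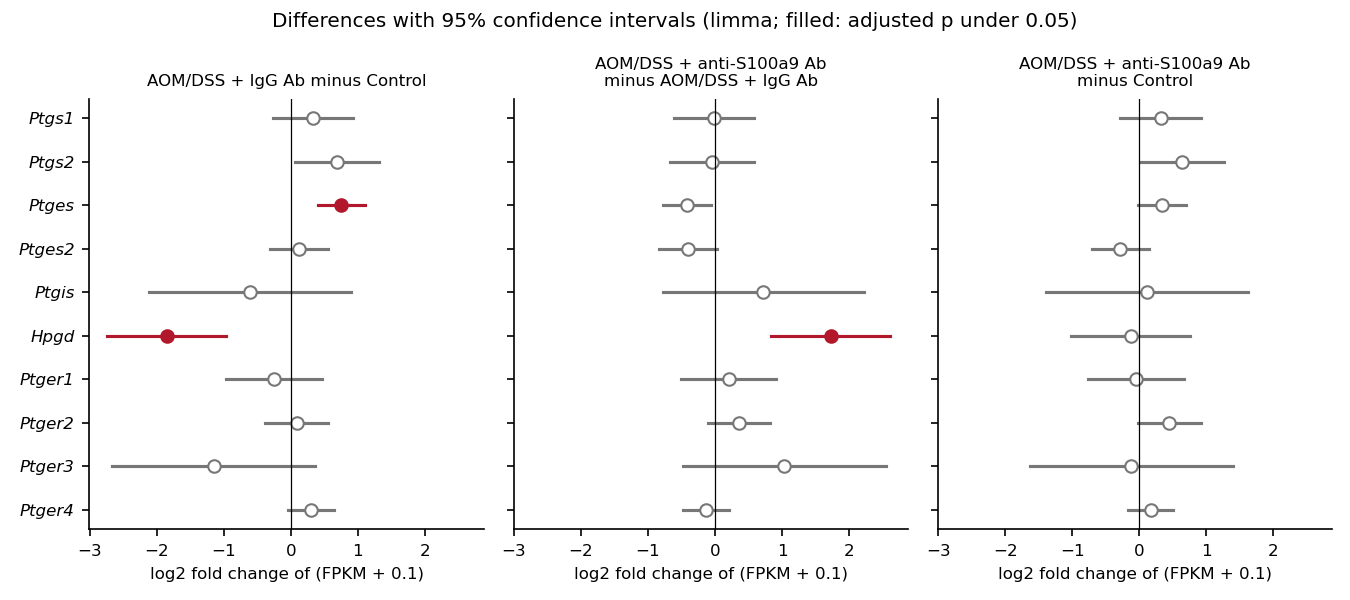
Log2 fold change of each gene (points) with its 95% confidence interval from limma (lines) in the 3 comparisons of 3 mice each, filled where the adjusted p was under 0.05. Hpgd and Ptges are filled in IgG Ab against Control and Hpgd between the AOM/DSS groups, the intervals of Ptgs2 against Control and of Ptges between the AOM/DSS groups also leave out 0 without passing the adjustment, and the intervals of Ptgis and Ptger3 are the widest.

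Hpgd (chr8:56294585-56321043, plus strand), whose promoter is printed above, was the gene with the largest difference of the 10 in both comparisons with the IgG Ab group. It was at 99.3, 166 and 97.4 FPKM in Control, at 16.5, 52.8 and 38.7 FPKM in IgG Ab and at 114, 101 and 106 FPKM in anti-S100a9 Ab colon. All IgG Ab samples were below all others, and the anti-S100a9 Ab samples lay within the Control range, with the smaller spread (107 ± 6.90 FPKM against 121 ± 39.0 FPKM). Hpgd fell by 1.85 on the log2 scale (SE 0.39, 95% confidence interval -2.74 to -0.97) in IgG Ab against Control, with a limma adjusted p of 0.021. With anti-S100a9 Ab against IgG Ab it was higher by 1.72 (SE 0.39, 95% confidence interval 0.84 to 2.61), with a limma adjusted p of 0.021. Against Control the anti-S100a9 Ab group differed by -0.13, with a 95% confidence interval of -1.02 to 0.76, so a moderate change in either direction cannot be told from none.

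The direction of Hpgd held on leaving out each sample, with log2 fold changes of -2.21 to -1.37 in IgG Ab against Control and of 1.24 to 2.08 between the AOM/DSS groups. Its call against Control was lost with an adjusted p of 0.052 without Control replicate 1, 0.077 without Control replicate 2 and 0.071 when the anti-S100a9 Ab samples were left out of the fit. Its call between the AOM/DSS groups was lost without any one of anti-S100a9 Ab replicates 1, 2 and 3, with limma adjusted p of 0.069, 0.067 and 0.060.

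Markers of surface colonocytes, the mature absorptive cells at the top of the crypts, moved with Hpgd between the groups. The summed level of the 5 markers Car1, Car4, Slc26a3, Aqp8 and Krt20 was 1054 to 1465 FPKM in Control, 106 to 439 FPKM in IgG Ab and 773 to 1767 FPKM in anti-S100a9 Ab colon, with no marker at 0 in a whole group. Within Control and within IgG Ab the replicates had the same order in this sum and in Hpgd. Within anti-S100a9 Ab they did not, with sums of 773, 1179 and 1767 FPKM beside Hpgd at 114, 101 and 106 FPKM. Of these markers 3 of 5 were called lower in IgG Ab against Control and 3 of 5 higher between the AOM/DSS groups. The 6 general epithelial markers Epcam, Cdh1, Krt8, Krt18, Vil1 and Cdx2, which check the labelled tissue, summed to 2071 to 2685, 2292 to 2963 and 1869 to 2277 FPKM in the 3 groups. Of these only Krt18 was called, opposite to Hpgd in both comparisons with IgG Ab. Its log2 fold change was 1.19 in IgG Ab against Control (limma adjusted p = 0.026) and -1.42 between the AOM/DSS groups (adjusted p = 0.013). Vil1 was lower without overlap in IgG Ab than in Control colon but was not called (limma adjusted p = 0.22). In whole tissue fewer cells of a type and less RNA per cell cannot be told apart, here and for every gene below, and the part of the surface cells in the Hpgd difference was not tested.

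**Figure D3:**
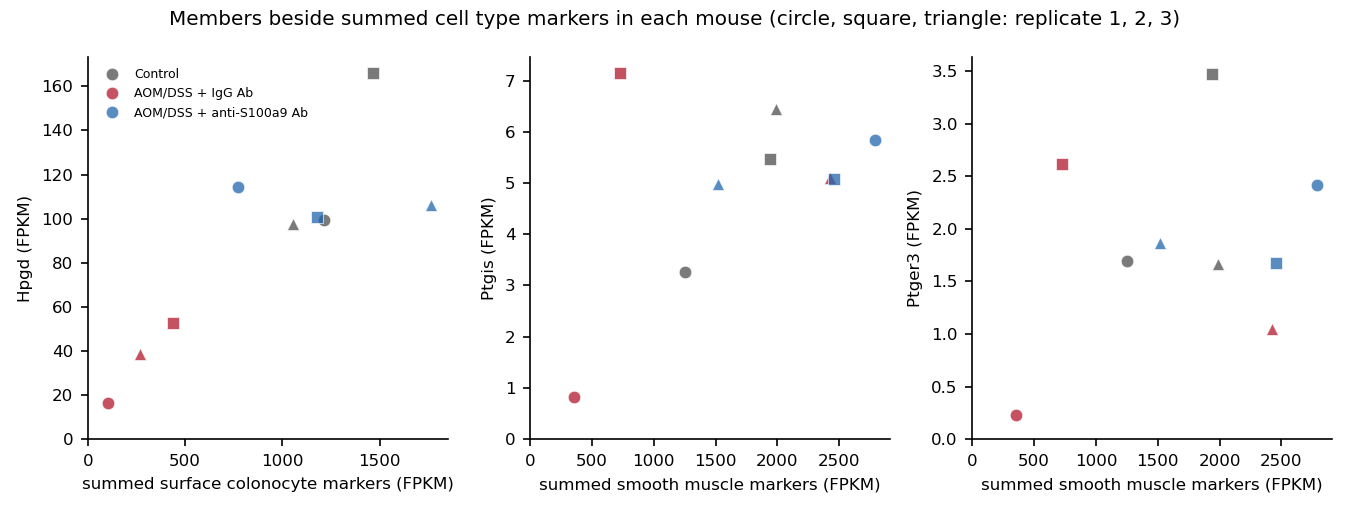
Levels of Hpgd, Ptgis and Ptger3 (vertical axes, FPKM) against the summed level of cell type markers (horizontal axes, FPKM) in the 9 mice, surface colonocyte markers for Hpgd and smooth muscle markers for the others. The 3 IgG Ab samples are lowest in both measures in the Hpgd panel, and IgG Ab replicate 1 is lowest in both measures in the other panels. IgG Ab replicate 2 has the next lowest smooth muscle sum but the highest Ptgis level, and only Control replicate 2 is above it for Ptger3.

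A ratio of the levels of a degrading and a synthesizing gene within a mouse does not depend on the scaling of that sample. The ratio of the Hpgd to the Ptges level was 19.8, 33.7 and 20.6 in Control, 2.06, 6.61 and 4.31 in IgG Ab and 15.5, 18.1 and 18.3 in anti-S100a9 Ab colon. The IgG Ab samples were below all others, and the anti-S100a9 Ab samples were below the Control samples by a small gap. The ratio of Hpgd to Ptgs2 was 59.4, 84.7 and 91.8 in Control, 5.40, 20.4 and 19.5 in IgG Ab and 52.5, 35.6 and 46.6 in anti-S100a9 Ab colon, and the 3 groups did not overlap. The ratios were chosen with the levels of these genes known and are a description without a test.

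**Figure D4:**
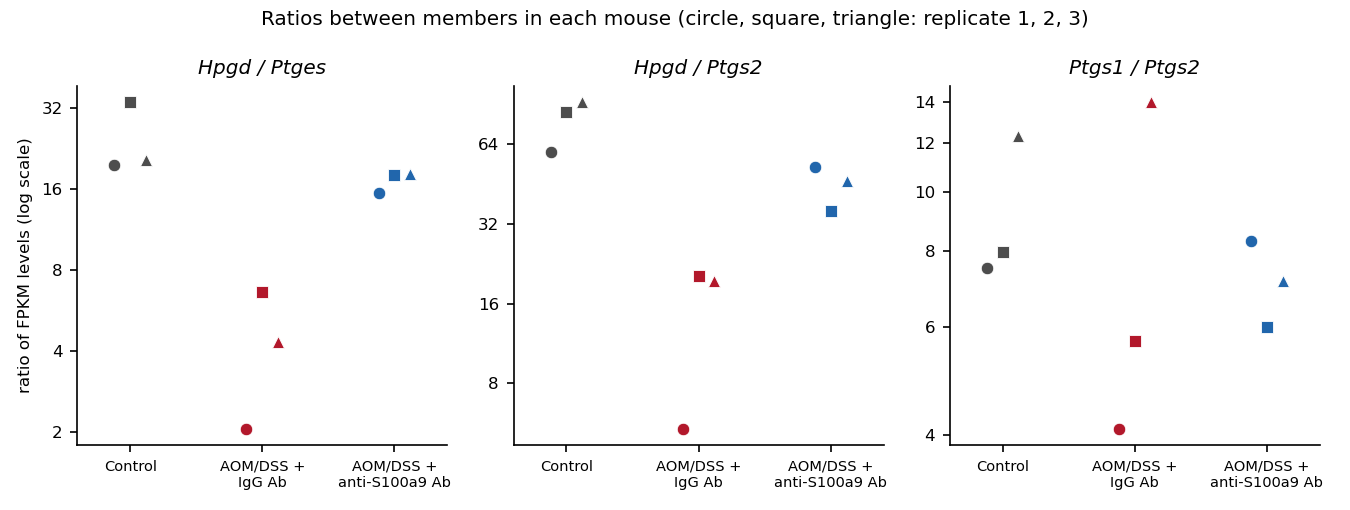
Ratios of FPKM levels between Hpgd and Ptges, Hpgd and Ptgs2, and Ptgs1 and Ptgs2 in each of the 9 mice, on log axes. Both Hpgd ratios are lowest in the IgG Ab samples, and the Ptgs1 to Ptgs2 ratio spreads most in that group, from 4.09 to 14.0.

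Ptger1 (chr8:83666678-83672753, plus strand), a receptor that couples to calcium signaling, was at 1.31, 2.25 and 1.34 FPKM in Control, at 0.971, 1.28 and 1.82 FPKM in IgG Ab and at 1.44, 1.29 and 1.94 FPKM in anti-S100a9 Ab colon. The groups overlapped, and the log2 fold changes of -0.25, 0.20 and -0.05 in the order of comparisons above all had intervals around 0.

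Ptger2 (chr14:44988195-45003820, plus strand), a receptor that raises cyclic AMP, was at 1.01, 1.04 and 0.859 FPKM in Control, at 1.06, 0.969 and 1.08 FPKM in IgG Ab and at 1.38, 1.22 and 1.47 FPKM in anti-S100a9 Ab colon. All anti-S100a9 Ab samples were above all 6 others. The log2 fold change of anti-S100a9 Ab was 0.36 (SE 0.21) against IgG Ab and 0.45 (SE 0.21) against Control, with limma adjusted p of 0.23 and 0.32. IgG Ab against Control gave 0.09, which turned to -0.01 after median-of-ratios scaling and to -0.03 after quantile normalization.

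Ptger3 (chr3:157566892-157645888, plus strand), a receptor that mostly lowers cyclic AMP, was at 1.69, 3.47 and 1.66 FPKM in Control, at 0.230, 2.61 and 1.05 FPKM in IgG Ab and at 2.42, 1.67 and 1.86 FPKM in anti-S100a9 Ab colon. As for Ptgis, IgG Ab replicate 1 had the lowest value of all 9 samples, and the groups overlapped. The log2 fold changes of -1.15 (SE 0.67) in IgG Ab against Control and 1.03 (SE 0.67) between the AOM/DSS groups became -0.35 and 0.22 without that sample, and neither was called in the fit of all samples, with limma adjusted p of 0.28 and 0.28. The 5 smooth muscle markers Acta2, Myh11, Des, Actg2 and Cnn1 summed to 354 FPKM in IgG Ab replicate 1, against 726 and 2426 FPKM in the other IgG Ab samples, 1250 to 1989 FPKM in Control and 1519 to 2787 FPKM in anti-S100a9 Ab colon, and none was at 0 in a whole group. IgG Ab replicate 2, whose sum of 726 FPKM was also below all Control and anti-S100a9 Ab samples, went the other way. It had the highest Ptgis level of all samples (7.15 FPKM), and its Ptger3 level (2.61 FPKM) was below that of Control replicate 2 only. The part of smooth muscle in the Ptgis and Ptger3 values was not tested.

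Ptger4 (chr15:5206661-5244187, minus strand), another receptor that raises cyclic AMP, was at 8.70, 8.38 and 6.61 FPKM in Control, at 9.08, 10.2 and 9.77 FPKM in IgG Ab and at 9.02, 8.15 and 9.35 FPKM in anti-S100a9 Ab colon. The IgG Ab samples were above all Control samples, and the anti-S100a9 Ab samples overlapped both other groups. The log2 fold change in IgG Ab against Control was 0.30 (SE 0.15, limma adjusted p = 0.22). Ptger4 shares 82 exonic bases with Ttc33 and 1015 with the pseudogene Gm15937, both on the opposite strand, and whether the libraries kept the strand is not given in the sources used here, so levels of genes with exons on both strands are uncertain.

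Ptger4 made up most of the summed level of the 4 receptors in every sample, at 55.4% to 68.4% in Control, 67.8% to 80.1% in IgG Ab and 63.3% to 66.1% in anti-S100a9 Ab colon. The summed receptor level was 12.8 ± 2.34, 13.4 ± 1.90 and 13.7 ± 1.23 FPKM in the 3 groups (SD, n = 3 each), differences smaller than the spread between mice.

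Counting samples rather than fitted values, 3 of the 10 genes (Ptgs2, Ptges and Ptger4) were higher without overlap and 1 (Hpgd) lower without overlap in IgG Ab against Control, where 20.7% and 10.2% of all genes were. Between the AOM/DSS groups 2 genes (Hpgd and Ptger2) were higher and 2 (Ptges and Ptges2) lower with anti-S100a9 Ab, against 18.5% and 28.5% of all genes. Against Control the anti-S100a9 Ab samples were higher for 4 genes (Ptgs1, Ptgs2, Ptges and Ptger2) and lower for 0, against 17.3% and 13.7% of all genes. At an unadjusted limma p under 0.05 in either direction, 3, 2 and 1 of the 10 genes passed in the 3 comparisons, against 29.5%, 39.1% and 16.0% of all genes.

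The genes whose log2 levels followed those of Ptges most closely over the 9 samples were Myl7 (Pearson r = 0.985), Prss23 (0.980) and Mmp28 (0.975). Their means in Control, IgG Ab and anti-S100a9 Ab colon were 3.92, 44.9 and 13.8 FPKM for Myl7, 8.19, 18.6 and 12.1 FPKM for Prss23, and 1.79, 5.10 and 3.00 FPKM for Mmp28. For Hpgd they were Zdhhc2 (0.987), Plekha6 (0.984) and Sult1d1 (0.983), with means of 8.43, 4.50 and 8.39 FPKM, 45.1, 23.1 and 39.0 FPKM, and 44.5, 9.20 and 41.9 FPKM. These are the highest of many correlations over 9 samples in 3 groups and are given as a description.

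Of 48 other genes of eicosanoid metabolism, 46 were in the files and 41 passed the filter. Of these, 10 were called higher and 1 lower in IgG Ab against Control, and 0 were called higher and 10 lower in anti-S100a9 Ab against IgG Ab, while the median log2 fold change of the 41 was -0.09 and -0.03. Of all genes tested, 8.18% were called higher and 3.01% lower in the former comparison and 6.72% and 14.4% in the latter, the shares beside which the counts by role below also stand. In anti-S100a9 Ab against Control limma called 0, and 6 had an unadjusted p under 0.05. The study had listed Pla2g2e, Pla2g2f, Pla2g12a, Alox12, Alox12e and Alox15 among the arachidonic acid genes it found changed in these samples, so their direction is not independent evidence. The count against Control was 4 without Control replicate 1, 6 without Control replicate 2, 6 without IgG Ab replicate 3 and 4 when only these groups were fitted, and that between the AOM/DSS groups was 5 without anti-S100a9 Ab replicate 2.

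Some phospholipases A2 supply the substrate, but not every gene of this family does. Among the 13 phospholipases A2 tested, 4 were called higher and 1 lower in IgG Ab against Control and 4 lower between the AOM/DSS groups. Pla2g12a, a secreted enzyme, was at 0.948, 1.27 and 1.64 FPKM in Control, 6.32, 3.74 and 3.99 FPKM in IgG Ab and 1.30, 0.988 and 1.33 FPKM in anti-S100a9 Ab colon, with log2 fold changes of 1.78 and -1.84 (limma adjusted p = 0.0074 and 0.0077). The secreted enzymes Pla2g2f and Pla2g2e rose by 1.30 and 2.68 in IgG Ab against Control (limma adjusted p = 0.021 and 0.024) and were lower by -1.50 and -3.01 with anti-S100a9 Ab (adjusted p = 0.012 and 0.014). Pla2g7, which cleaves platelet-activating factor, rose by 1.11 against Control (adjusted p = 0.028), and the calcium-independent Pla2g6 was lower by -1.27 with anti-S100a9 Ab (adjusted p = 0.012). Pla2g4f, a cytosolic form, was lower in IgG Ab than in Control colon, with a log2 fold change of -1.18 (adjusted p = 0.035). Pla2g4a, the cytosolic enzyme best known for releasing arachidonic acid, was at 13.0, 12.4 and 9.13 FPKM in Control, 6.13, 9.50 and 8.66 FPKM in IgG Ab and 11.8, 11.7 and 13.8 FPKM in anti-S100a9 Ab colon, and its log2 fold changes of -0.51 and 0.63 were not called (limma adjusted p = 0.14 and 0.057).

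Among the 8 other prostanoid synthases, 1 was called higher in IgG Ab against Control and 2 lower between the AOM/DSS groups. Ptgds, a prostaglandin D synthase, was listed at 0 in Control replicates 1 and 3 and at 0.110 FPKM in replicate 2, was at 6.53, 0.670 and 0.636 FPKM in IgG Ab and at 0.242, 0.0415 and 0.0445 FPKM in anti-S100a9 Ab colon, and was called in both comparisons (limma adjusted p = 0.028 and 0.035). Ptges3, a PGE2 synthase also known as a co-chaperone, was lower by -0.58 with anti-S100a9 Ab than with IgG Ab (SE 0.16, limma adjusted p = 0.036). Hpgds, the hematopoietic prostaglandin D synthase, was at 2.13, 2.13 and 1.73 FPKM in Control, 2.04, 2.92 and 1.89 FPKM in IgG Ab and 3.35, 3.76 and 3.52 FPKM in anti-S100a9 Ab colon. Its anti-S100a9 Ab samples were above all 6 others, with log2 fold changes of 0.80 against Control and 0.64 against IgG Ab that were not called (limma adjusted p = 0.30 and 0.066). Tbxas1, the thromboxane synthase, differed by 0.35 (SE 0.37) in IgG Ab against Control and by -0.24 (SE 0.37) between the AOM/DSS groups, neither called.

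Of 5 further genes of degradation and transport, 2 were called higher in IgG Ab against Control and 1 lower between the AOM/DSS groups. Ptgr1, a reductase that acts on the products of Hpgd, was at 12.5, 11.5 and 13.8 FPKM in Control, 57.8, 20.3 and 38.9 FPKM in IgG Ab and 12.1, 11.1 and 12.6 FPKM in anti-S100a9 Ab colon, a pattern opposite to that of Hpgd, with log2 fold changes of 1.50 and -1.58 (limma adjusted p = 0.021 and 0.016). Slco2a1, the transporter that takes prostaglandins into cells, was at 16.9, 19.2 and 13.8 FPKM in Control, 4.10, 11.0 and 11.3 FPKM in IgG Ab and 15.3, 18.9 and 15.7 FPKM in anti-S100a9 Ab colon. Its IgG Ab samples were below all others, as for Hpgd, but its log2 fold changes of -1.04 and 1.04 were not called (limma adjusted p = 0.092 and 0.065). Abcc4, which exports prostaglandins, was at 5.12, 4.45 and 2.88 FPKM in Control, 21.2, 7.19 and 8.98 FPKM in IgG Ab and 5.61, 5.57 and 6.37 FPKM in anti-S100a9 Ab colon, and it rose by 1.44 in IgG Ab against Control (limma adjusted p = 0.044). Its difference of -0.92 between the AOM/DSS groups was not called (limma adjusted p = 0.11).

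Among the 4 other prostanoid receptors tested, 0 were called by limma in any comparison, and 0 had an unadjusted p under 0.05. The prostacyclin receptor Ptgir was at 0.79, 1.26 and 0.928 FPKM in Control, 0.535, 0.992 and 0.855 FPKM in IgG Ab and 1.31, 0.834 and 1.17 FPKM in anti-S100a9 Ab colon, with overlap between all groups.

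Lipoxygenases use the same substrate as the cyclooxygenases. Among 11 lipoxygenase and leukotriene genes, 3 lipoxygenases were called higher in IgG Ab against Control and lower between the AOM/DSS groups. Alox15 was at 0.196, 0.701 and 0.283 FPKM in Control, 50.6, 27.9 and 8.56 FPKM in IgG Ab and 3.60, 1.14 and 2.55 FPKM in anti-S100a9 Ab colon, with log2 fold changes of 5.68 and -3.33 (limma adjusted p = 0.0021 and 0.016). Alox12 was at 0.473, 0.422 and 0.350 FPKM in Control, 14.8, 4.16 and 20.3 FPKM in IgG Ab and 0.860, 0.401 and 0.299 FPKM in anti-S100a9 Ab colon, with log2 fold changes of 4.41 and -4.24 (limma adjusted p = 0.0028 and 0.0047). Alox12e, an epidermal form, had log2 fold changes of 2.80 and -2.95 (limma adjusted p = 0.0013 and 0.0021) at levels of up to 1.18 FPKM. These 3 differences were larger than those of any of the 10 prostaglandin genes. In anti-S100a9 Ab against Control Alox15 was higher without overlap by 2.35 (SE 0.68) but not called (limma adjusted p = 0.30).

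**Figure D5:**
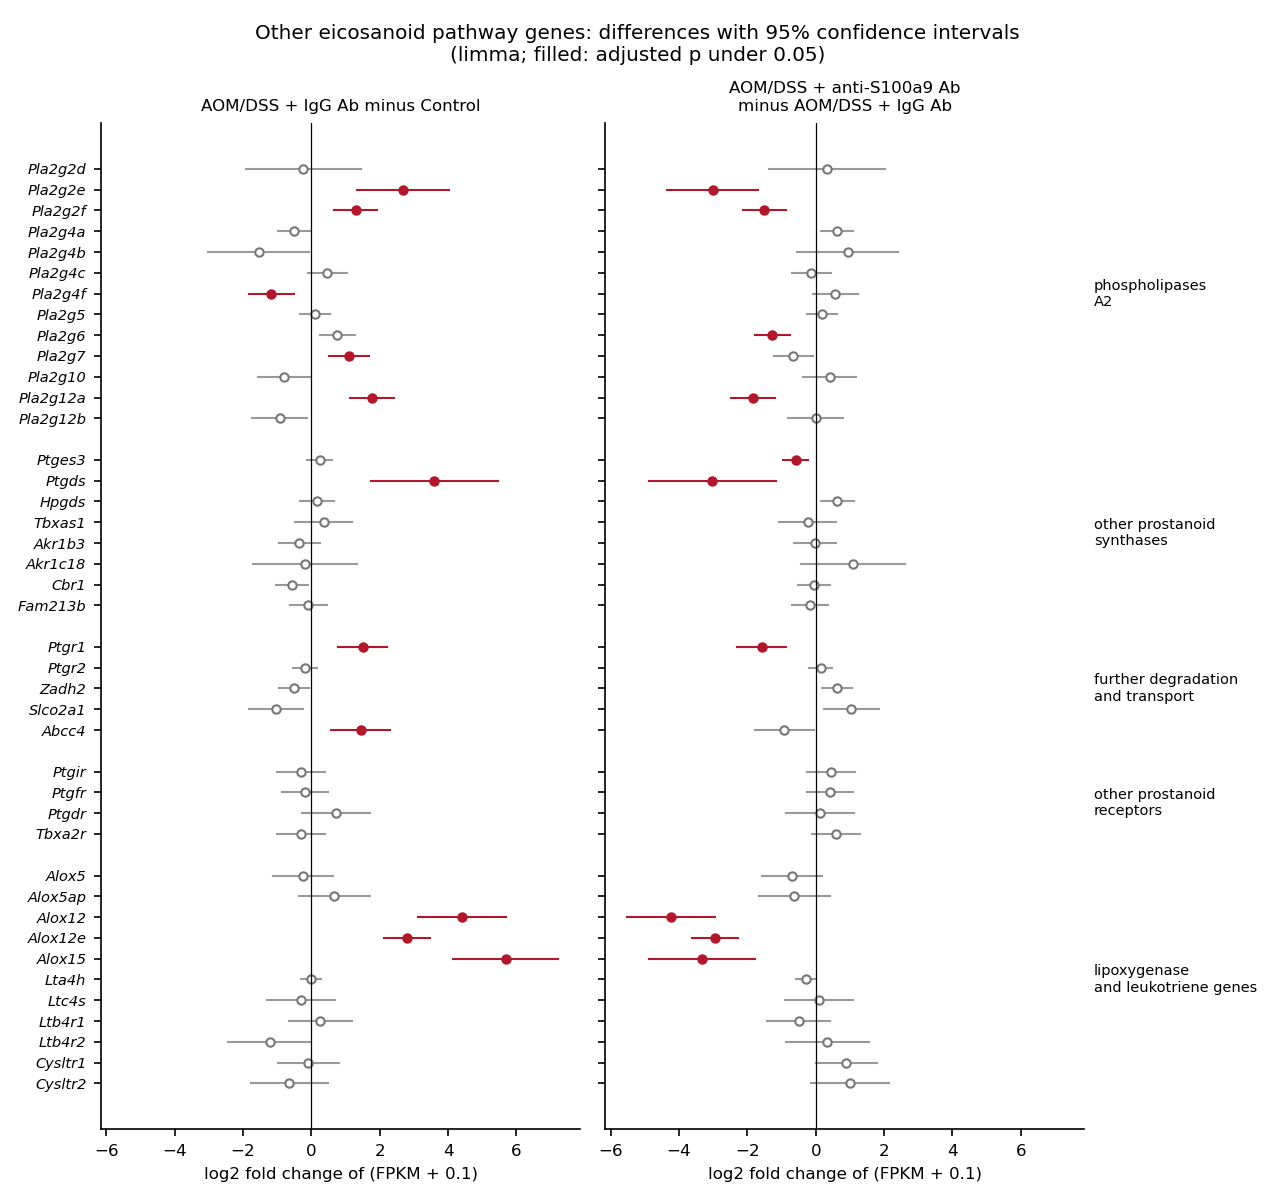
Log2 fold changes (points) with 95% confidence intervals (lines) of 41 other eicosanoid pathway genes by role, filled where limma's adjusted p was under 0.05, for IgG Ab against Control on the left and anti-S100a9 Ab against IgG Ab on the right. On the left 10 genes are called higher and 1 lower, on the right 10 lower, and the lipoxygenases Alox12 and Alox15 lie farthest from 0 on both sides.

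Markers of other cells differed between the groups as well, and within a list they did not always move together. The 5 neutrophil markers (Csf3r, Cxcr2, S100a8, S100a9 and Retnlg) summed to 1.89 to 4.32 FPKM in Control, 107 to 590 FPKM in IgG Ab and 12.1 to 29.0 FPKM in anti-S100a9 Ab colon, and 5 of 5 were called higher in IgG Ab against Control and 4 of 5 lower between the AOM/DSS groups. S100a8 and the antibody's target S100a9 carried most of the sum, with IgG Ab means of 139 and 168 FPKM. Retnlg had a mean of 38.3, Csf3r of 3.19 and Cxcr2 of 1.61 FPKM in that group. Csf3r was the marker not called between the AOM/DSS groups (limma adjusted p = 0.11). The 5 fibroblast markers summed to 339 to 398, 429 to 1316 and 468 to 592 FPKM. In this list Col1a1 and Col1a2, which carried the rise of the sum, were called higher in IgG Ab against Control and lower with anti-S100a9 Ab, and Pdgfra was called higher in IgG Ab against Control. Dcn (means of 214, 266 and 333 FPKM) and Lum (39.7, 42.3 and 56.3 FPKM) had their highest means in anti-S100a9 Ab colon and were not called in either comparison. The 6 squamous epithelium markers summed to 1.61 to 3.23, 6.50 to 40.1 and 2.05 to 2.74 FPKM, mostly through Krt14. Krt14 and Dsg3, the latter at 0 in all Control samples, were the 2 squamous markers called in both comparisons, and Krt10 had means of 1.02, 0.902 and 0.682 FPKM. The part of these cells in the values of Ptges and of the lipoxygenases was not tested.

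Among markers of enteric neurons and glia, Elavl4, Sox10 and S100b were, as Hpgd was, lower without overlap in IgG Ab than in Control and higher without overlap with anti-S100a9 Ab than with IgG Ab, while Uchl1 overlapped in both comparisons. Limma called none of these 4 in IgG Ab against Control (adjusted p = 0.15 for Elavl4, 0.078 for Sox10, 0.086 for S100b and 0.74 for Uchl1). Elavl4 (log2 fold change 1.80, limma adjusted p = 0.030) and Sox10 (1.63, adjusted p = 0.029) were called higher with anti-S100a9 Ab than with IgG Ab, and S100b (1.27, adjusted p = 0.057) was not called. The 4 adipocyte markers (Adipoq, Plin1, Fabp4 and Lep) summed to 42.9 to 128 FPKM in Control, 9.64 to 37.7 FPKM in IgG Ab and 19.2 to 35.2 FPKM in anti-S100a9 Ab colon, with Lep at 0 in all anti-S100a9 Ab samples. Of the 3 that passed the filter, Adipoq (log2 fold change -4.69, limma adjusted p = 0.022) and Plin1 (-2.75, adjusted p = 0.030) were called lower in IgG Ab against Control, and 0 were called between the AOM/DSS groups, where 0 had an unadjusted p under 0.05. Control replicate 2 had the highest adipocyte sum of the 9 samples and also the highest Hpgd and Ptger3 levels. The part of these cells in the values of Hpgd and Ptger3 was not tested.

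IgG Ab replicate 1 had the lowest mean correlation with the other samples (0.867, against 0.904 to 0.932), and no pair of files was identical. FPKM totals per sample were 308377 to 408811, and the depth is unknown, so no counting error is given and the spread between mice is the only error.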

How the data were processed

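Colon RNA of 9 mice, 3 per group, was sequenced by a Solexa protocol after mirVana extraction. Each mouse has a deposited table of FPKM values with 21544 rows, identified by symbol. No source names the unit, and FPKM was inferred from decimals that total 308377 to 408811 per sample. The submitters' processing notes name TopHat, Cufflinks, HTSeq, DESeq and the build GRCm38, with versions and roles not given in the sources used here. The authors' DESeq test needs counts and was not repeated. For each pair of samples, the log2 ratios of genes with low values above 0 in both were grouped in narrow steps. The most frequent step of a pair held 6.92% to 20.1% of these genes. Low values thus gave no common ratio, so reads were not recovered and depth is unknown. Gapdh was listed at no more than 0.755 FPKM, so genes at 0 are reported as listed at 0 and nothing more.

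Rows repeating a symbol (46) were summed. The filter kept 15278 genes that reached 0.1 FPKM in 3 or more samples, and their log2(FPKM + 0.1) was compared with limma 3.58.1 in R 4.3.3 (all 9 samples, intensity trend, 8.87 degrees of freedom, Benjamini-Hochberg adjustment over all genes). On that scale the change of a low gene is understated. The script was tested on simulated data. The labels call the replicates biological but do not tie them to separate cages or batches. Correlations of log2 values were 0.917 to 0.970 within and 0.839 to 0.972 between groups, and at most 0.00638% of values above 0 were identical in any pair of files. Same-numbered samples of the compared groups deviated from their group means with correlations of -0.187 to 0.249, so the numbers were not used to pair samples.

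The members and lists were chosen with earlier results of these data known. Named are all 10 members, every other pathway gene with an adjusted p under 0.05 in any comparison, the genes Slco2a1, Abcc4, Hpgds, Tbxas1, Ptgds, Ptgir and Pla2g4a whatever their p, and, for each called member, the 3 genes with the highest Pearson correlation among genes with a mean of at least 1 FPKM. Alternatives covered the pseudocount, the filter, the scaling, the groups in the fit, the intensity trend, the replicate block, the study's thresholds (unadjusted p under 0.05 and more than 2-fold) and leaving out each sample. Positions are from GENCODE M21 on GRCm38, start site sequences from RefSeq. Tables and figures were made with pandas 2.3.3, numpy 2.4.6 and matplotlib 3.10.9 in Python 3.11.15. Some values of marker and overlapping genes are not reported here.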

Additional observations from a re-analysis of the deposited data

How the results depend on the processing

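Depth is unknown, so precision rests on 3 mice per group. The median of all genes in AOM/DSS + IgG Ab against Control was 0.09 as deposited, -0.01 after median-of-ratios scaling and -0.03 after quantile normalization. Of the 10 prostaglandin genes, 2 were called in AOM/DSS + IgG Ab against Control, 0 when only these groups were fitted and 1 (Hpgd, lower) under the study's thresholds, with 0 to 2 on leaving out single samples. Between the AOM/DSS groups 1 was called, with 0 to 1 on leaving out single samples. The other eicosanoid genes called were 11 in AOM/DSS + IgG Ab against Control, 4 when only these groups were fitted and 4 to 11 on leaving out samples, 10 between the AOM/DSS groups and 5 to 14 on leaving out samples, and 0 in AOM/DSS + anti-S100a9 Ab against Control but 1 (Alox15, higher) under the study's thresholds. The fit with a replicate block, tried although the numbers did not pair the samples, called 2, 1 and 0 prostaglandin genes in the order IgG Ab against Control, anti-S100a9 Ab against IgG Ab and anti-S100a9 Ab against Control, and 12, 11 and 0 other eicosanoid genes.

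Some uncalled log2 fold changes changed sign, and the cause was not tested. The largest were those of Ptgis, at -0.60 in AOM/DSS + IgG Ab against Control and 0.72 between the AOM/DSS groups. Both changed sign without AOM/DSS + IgG Ab replicate 1. In AOM/DSS + IgG Ab against Control Ptges2 became -0.0347 and Ptger2 -0.0331 after quantile normalization, and Ptger2 became -0.00831 after median-of-ratios scaling. Between the AOM/DSS groups Ptgs1 became 0.0686 after median-of-ratios scaling and 0.14 after quantile normalization, and Ptgs2 became 0.0284 after median-of-ratios scaling. In AOM/DSS + anti-S100a9 Ab against Control Hpgd became 0.12 after quantile normalization. Leaving out single samples gave, in AOM/DSS + IgG Ab against Control, -0.00864 to 0.56 for Ptgs1, -0.0119 to 0.24 for Ptges2 and -1.18 to 0.31 for Ptgis. Between the AOM/DSS groups it gave -0.24 to 0.33 for Ptgs1, -0.21 to 0.0878 for Ptgs2 and -0.19 to 1.30 for Ptgis. In AOM/DSS + anti-S100a9 Ab against Control it gave -0.16 to 0.32 for Ptgis, -0.26 to 0.12 for Hpgd, -0.21 to 0.19 for Ptger1 and -0.30 to 0.22 for Ptger3. The called differences of Hpgd and Ptges kept their direction under every alternative run.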
